A study of Rattus norvegicus with 71 samples.

Results

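The genes described here are 41 genes whose protein products build the synaptic vesicle and carry out the release of transmitter, chosen by name from 17494 genes counted in the forebrain of newborn rats. They comprise 3 synapsins, 8 vesicle membrane proteins, 7 synaptotagmins and related calcium sensors, 4 SNAREs, 6 SNARE regulators and recycling proteins, 8 Rab3 and active zone proteins, 2 vesicular glutamate transporters and 3 endocytosis proteins. All 41 passed the filter on low counts in every comparison.

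Bulk RNA-seq was performed on 71 Sprague-Dawley pups of both sexes (35 males, 36 females) at postnatal day 2, from 27 litters, to ask how gestational exposure to maternal autoantibodies of the kind found in maternal autoantibody-related autism (MARA) changes early gene expression. Dams were immunised before pregnancy with peptides of 1 of 4 antigen patterns in Freund's adjuvant, and dams of control pups received adjuvant with saline, so that all pups were wild type and all were born to dams given adjuvant. The groups were CRMP1+CRMP2 (8 pups, 4 litters), CRMP1+GDA (6 pups, 3 litters), STIP1+NSE (8 pups, 4 litters), LDHA/B+CRMP1+STIP1 (25 pups, 9 litters) and Control (24 pups, 7 litters). The samples carry 2 series of titles: 43 pups titled MAR_C3, which hold all groups, and 28 pups titled IgG, RNA or FcRn, which hold 12 controls and 16 LDHA/B+CRMP1+STIP1 pups only. Littermates shared a dam and therefore her antibodies, so a p-value that counts pups as replicates measures the spread between pups and overstates the number of independent exposures. Tissue was a coronal slice with the hippocampus and neighbouring cortical and subcortical tissue, so fewer cells of a type and less RNA per cell cannot be told apart. Libraries held between 24880182 and 36234952 counts.

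Neurons store transmitter in small vesicles that are clustered by synapsins, filled by transporters, docked at the active zone with the help of Rab3 and the Rim, Munc13, Bassoon and Piccolo scaffolds, and fused with the membrane when SNARE proteins zip together. Some synaptotagmins sense the calcium that triggers fusion, and complexins hold the SNARE bundle ready. NSF and the SNAP adaptors take used SNARE bundles apart, and dynamin, amphiphysin and AP180 bring membrane back. In rodent forebrain most synapses form after birth, and at postnatal day 2 these genes are read mainly in young neurons.

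Promoters are shown for the 2 vesicular glutamate transporters, of which Slc17a6 varied 11.3-fold between pups, and for 2 of the genes that were lower after CRMP1+CRMP2 exposure. Sequences are from RefSeq (build GRCr8) and run 5′ to 3′ along the gene's strand over the 250 bases before the annotated start. Of the 41 genes, 31 had such a window and 10 are named here only: Snap25, Snap91, Syn3, Syt5, Syt7, Doc2b, Rims2, Sypl1, Syngr1 and Syngr3. Capitals mark matches, on either strand, to the GC box GGGCGG, the E-box CAGCTG, the E-box of the form CAGGTG, the palindromic E-box CACGTG, the cyclic AMP response element core TGACG and the TATA box TATAAA, none of which contains another. The windows lie at chr1:110348197-110348446 (plus strand) for Slc17a6, chr1:104785955-104786204 (plus strand) for Slc17a7, chrX:17536450-17536699 (minus strand) for Syp and chr3:156632419-156632668 (minus strand) for Napb.
Slc17a6: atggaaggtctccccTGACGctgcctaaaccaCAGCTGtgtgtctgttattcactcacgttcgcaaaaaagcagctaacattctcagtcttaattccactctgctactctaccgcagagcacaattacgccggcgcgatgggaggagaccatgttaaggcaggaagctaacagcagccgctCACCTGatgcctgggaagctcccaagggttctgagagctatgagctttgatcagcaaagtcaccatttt
Slc17a7: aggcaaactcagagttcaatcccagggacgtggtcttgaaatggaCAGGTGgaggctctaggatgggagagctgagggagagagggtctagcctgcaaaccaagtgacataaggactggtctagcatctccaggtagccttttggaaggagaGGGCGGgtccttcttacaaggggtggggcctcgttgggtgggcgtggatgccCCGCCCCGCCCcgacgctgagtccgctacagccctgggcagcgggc
Syp: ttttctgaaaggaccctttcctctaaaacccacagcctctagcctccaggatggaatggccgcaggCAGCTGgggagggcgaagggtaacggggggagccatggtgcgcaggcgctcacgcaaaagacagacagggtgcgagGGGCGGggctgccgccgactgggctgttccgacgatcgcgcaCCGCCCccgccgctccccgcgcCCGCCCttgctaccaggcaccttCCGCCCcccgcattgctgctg
Napb: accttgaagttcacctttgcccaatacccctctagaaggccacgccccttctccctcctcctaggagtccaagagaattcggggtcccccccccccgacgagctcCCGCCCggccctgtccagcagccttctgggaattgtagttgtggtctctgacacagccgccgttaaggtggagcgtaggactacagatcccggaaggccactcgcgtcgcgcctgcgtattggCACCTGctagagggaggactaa

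The GC box was found in the windows of 22 of the 31 genes and in 50.9% of 12818 windows of genes in the table. Slc17a6 was among those without it, whereas Slc17a7, Syp and Napb each held it. CAGCTG was found in 10 of the 31 (12.8% of all windows), CAGGTG in 9 (16.4%), TGACG in 10 (24.9%) and CACGTG in 2 (7.26%). No window of the 31 held TATAAA, which 9.22% of all windows held. These matches describe the letters of the windows only.

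Per length, the most abundant member was Vamp2, the vesicle SNARE of fast release, at 306 ± 26 RPKM (counts scaled to exon length and library size, mean ± SD, n = 71 pups). The vesicle GTPase Rab3a followed at 297 ± 32 RPKM. Synaptophysin (Syp), the highest of the 8 genes grouped here as vesicle membrane proteins, came next at 254 ± 48.1 RPKM. Of the 41 genes, 15 exceeded 100 RPKM and 10 lay under 25 RPKM on average. The lowest were Syt2 (3.19 ± 1.85 RPKM), the calcium sensor of fast synapses in the brainstem and spinal cord, Sv2c (6.15 ± 2.91 RPKM) and Vamp1 (8.79 ± 3.33 RPKM). Most neighbours in the order of levels were not separated beyond their spread: in only 1 of the 40 neighbouring pairs (Stxbp5 above Bsn) did the higher gene exceed the lower in all 71 pups, and in 4 pairs it did so in at least 60 pups.

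**Figure D1:**
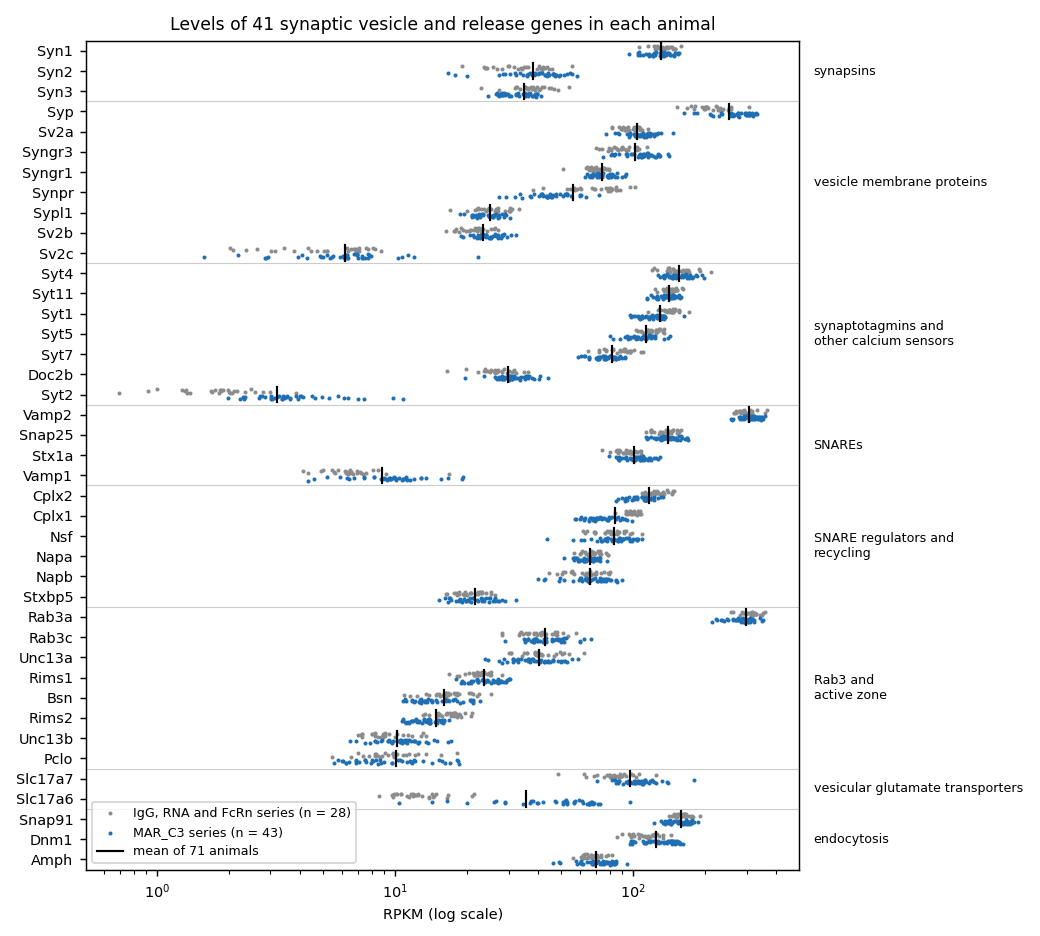
RPKM of the 41 genes in each of the 71 pups on a log scale, grouped by role, with grey points for the 28 pups of the IgG, RNA and FcRn series, blue points for the 43 pups of the MAR_C3 series and a black line at the mean. Vamp2 and Rab3a lie highest, Syt2 lies lowest, and Slc17a6 spreads from 8.61 to 97.3 RPKM.

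Within roles, levels differed between relatives for some families and overlapped for others. Among synapsins, Syn1 reached 131 ± 13.8 RPKM, compared with 37.9 ± 9.43 for Syn2 and 34.7 ± 5.91 for Syn3. Among the SV2 vesicle glycoproteins, Sv2a stood at 104 ± 13.2 RPKM and Sv2b at 23.5 ± 3.18 RPKM. Among SNAREs, the plasma membrane partners Snap25 (140 ± 14.5 RPKM) and Stx1a (101 ± 11.7 RPKM) lay below Vamp2. The synaptotagmins and related calcium sensors were led by 3 genes whose levels overlapped. These were Syt4 (155 ± 18.9 RPKM), Syt11 (141 ± 10.8 RPKM) and Syt1 (130 ± 16.8 RPKM), the last being the sensor of fast release in the forebrain. The giant scaffolds of the active zone were low per length, with Bsn at 16.1 ± 3.43 RPKM and Pclo at 10.1 ± 3.37 RPKM, as were the priming factors Unc13a (40.3 ± 8.06 RPKM) and Unc13b (10.2 ± 2.27 RPKM). Of the clathrin adaptors and membrane shapers, Snap91 (AP180) stood at 159 ± 14.4 RPKM, Dnm1 at 125 ± 20.1 RPKM and Amph at 70.2 ± 9.30 RPKM.

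Litters differed from each other more than littermates did. For 36 of the 41 genes, the share of variance (log2 CPM) that lay between litters of a series was larger than the share within litters, with medians of 50.3% and 31.5%. The share between litters includes any difference between exposure groups, because all pups of a litter belonged to the same group. Neither share is given over all genes. The difference between the 2 title series took a median of 14.1% and more than 50% in 3 genes, namely Slc17a6 (72.4%), Cplx1 (63.3%) and Synpr (51.9%), these 3 being named after their values were seen. The coefficient of variation had a median of 16.1% over the 41 genes and was largest in Slc17a6 (65.8%), whose highest pup exceeded the lowest 11.3-fold.

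Some libraries stood apart by the tissue they held. Of the 71 pups, 9 had more than 10 CPM summed over the Hox genes, which mark hindbrain and spinal cord: 1 control (78.4 CPM, IgG, RNA and FcRn series), 2 CRMP1+CRMP2, 2 CRMP1+GDA, 3 LDHA/B+CRMP1+STIP1 and 1 STIP1+NSE pup, with a highest sum of 186 CPM. Markers of thalamus and habenula summed to less than in any MAR_C3 control in 6 MAR_C3 pups (2 CRMP1+CRMP2, 3 LDHA/B+CRMP1+STIP1 and 1 STIP1+NSE). Results that rest on these pups are given with and without them. The markers of neurons were present in every group, with sums of 8739 CPM or more in controls and CRMP1+CRMP2 pups. No 2 libraries agreed within sampling noise, the closest pair having a mean chi-square of 5.52 per gene.

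The 24 control pups, whose dams received no antigen, allowed the 2 title series to be compared without exposure. The largest difference was in Slc17a6 (Vglut2), the vesicular glutamate transporter typical of thalamic and other subcortical neurons (rn7 chr1:101212489-101252543, plus strand). Levels are given here in CPM, which are counts scaled to library size with TMM factors and not to exon length. Slc17a6 stood at a lowest, median and highest of 34.2, 50.6 and 85.1 CPM in the 12 control pups of the IgG, RNA and FcRn series. In the 12 of the MAR_C3 series it stood at 105, 239.7 and 282 CPM. The groups did not overlap, and the log2 fold change was 2.09 (SE 0.16, adjusted p = 8.11e-10, edgeR quasi-likelihood test with Benjamini-Hochberg adjustment over all genes). Slc17a7 (Vglut1), typical of cortical and hippocampal neurons (rn7 chr1:95649765-95660712, plus strand), ranged from 96.7 over 179 to 249.6 CPM in the IgG, RNA and FcRn controls and from 190.4 over 206 to 241 CPM in the MAR_C3 controls. These overlapped, and the MAR_C3 controls were higher by 0.25 on the log2 scale (SE 0.10, adjusted p = 0.0594).

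In all, 24 of the 41 genes differed between the control series at an adjusted p under 0.1, 15 higher and 9 lower in MAR_C3, where 41.5% of all 12565 genes tested did so. The share among the 41 genes (24 of 41) is read against that background. Complexin 1 (Cplx1) did not overlap either, with 198, 204 and 223 CPM (lowest, median, highest) in the IgG, RNA and FcRn controls and 130, 147 and 175 CPM in the MAR_C3 controls (log2 fold change -0.47, SE 0.04, adjusted p = 4.65e-09). Synaptoporin (Synpr), a vesicle protein related to synaptophysin that is rich in hippocampal mossy fibres, was lower by 0.74 on the log2 scale in MAR_C3 (log2 fold change -0.74, SE 0.11, adjusted p = 1.03e-05). Syp (0.38, SE 0.07), Syngr3 (0.34, SE 0.05) and Syt2 (0.84, SE 0.19) were higher on the log2 scale, with adjusted p of 8.96e-05, 2.31e-05 and 0.00104. Syt5 (-0.20), Rims2 (-0.29), Cplx2 (-0.18) and Syt1 (-0.21) were lower in log2 fold change, with adjusted p from 0.00046 to 0.00439. Snap25 (log2 fold change 0.03, SE 0.07) and Syn1 (-0.04, SE 0.06) did not pass.

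By role, 6 of 8 vesicle membrane proteins passed (5 higher, 1 lower), as did 4 of 7 synaptotagmins and related calcium sensors (2 higher, 2 lower). So did 2 of 4 SNAREs (Stx1a and Vamp1, both higher) and 4 of 6 SNARE regulators (1 higher, 3 lower). Of the Rab3 and active zone genes 3 of 8 passed (1 higher, 2 lower), and of the synapsins 1 of 3 (Syn3, lower). Both glutamate transporters and 2 of 3 endocytosis genes (Amph and Dnm1) passed, all higher. With the 7 control litters treated as a random effect (limma voom), 12 of the 41 passed (22.5% of all genes), and with counts summed per litter 9 passed (15.7% of all genes). Slc17a6, Cplx1, Synpr, Syngr3, Syp, Syt2, Rims2, Syt5 and Cplx2 passed in both. Slc17a6 stood at 2.06 (SE 0.20) and 2.01 (SE 0.22) on the log2 scale. Of 69 other vesicle cycle genes tested, 20 were higher and 12 lower, among them the synaptotagmin Syt6 (log2 fold change -1.50, SE 0.08), the vesicular monoamine transporter Slc18a2 (1.56, SE 0.18) and Syt13 (0.93, SE 0.11).

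The region markers moved with the series. The summed level of 7 markers of thalamus and habenula lay between 51.8 and 154 CPM in the IgG, RNA and FcRn controls and between 331 and 936 CPM in the MAR_C3 controls, and all 7 were called higher in MAR_C3. All 8 choroid plexus markers were also called higher, with summed levels of 24.4 to 133 CPM against 164 to 3001 CPM, while 5 of 8 cortical and hippocampal excitatory markers were called lower and 1 higher. The series also differ in whatever else changed with the titles, and batch and dissection cannot be told apart here. Over the 20 litters of the MAR_C3 series, Slc17a6 followed the summed thalamus markers with Pearson's r = 0.976 and Spearman's rho = 0.925 on litter means (each permutation p = 2e-05, two-sided, the smallest that 100000 permutations can give, and adjusted p = 0.00016 over 8 relations of 4 genes in 2 series). Without the 2 litters farthest from the median of the marker sum, r was 0.945. Over the 7 litters of the other series r was 0.912 (exact permutation p = 0.00635, adjusted 0.0127; rho = 0.857, p = 0.0238, adjusted 0.0476) and 0.714 without 2 litters. Slc17a7 had r = -0.514 (permutation p = 0.0493, adjusted 0.0652; rho = -0.466, p = 0.0396, adjusted 0.0561) in the MAR_C3 series and r = 0.888 (exact permutation p = 0.00357, adjusted 0.00952; rho = 0.893, p = 0.0123, adjusted 0.0328) in the other, with -0.609 and 0.726 without 2 litters. The sign thus differed between the series, and that difference was not tested. Synpr had r = -0.427 (permutation p = 0.0571, adjusted 0.0652; rho = -0.332, p = 0.151, adjusted 0.173) and r = 0.926 (exact permutation p = 0.00198, adjusted 0.00794; rho = 0.964, p = 0.00278, adjusted 0.0111), with -0.410 and 0.949 without 2 litters. Syt2 had r = 0.476 (permutation p = 0.0138, adjusted 0.022; rho = 0.46, p = 0.0421, adjusted 0.0561) and r = 0.409 (exact permutation p = 0.363, adjusted 0.363; rho = 0.393, p = 0.396, adjusted 0.396), with 0.411 and 0.604 without 2 litters.

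**Figure D2:**
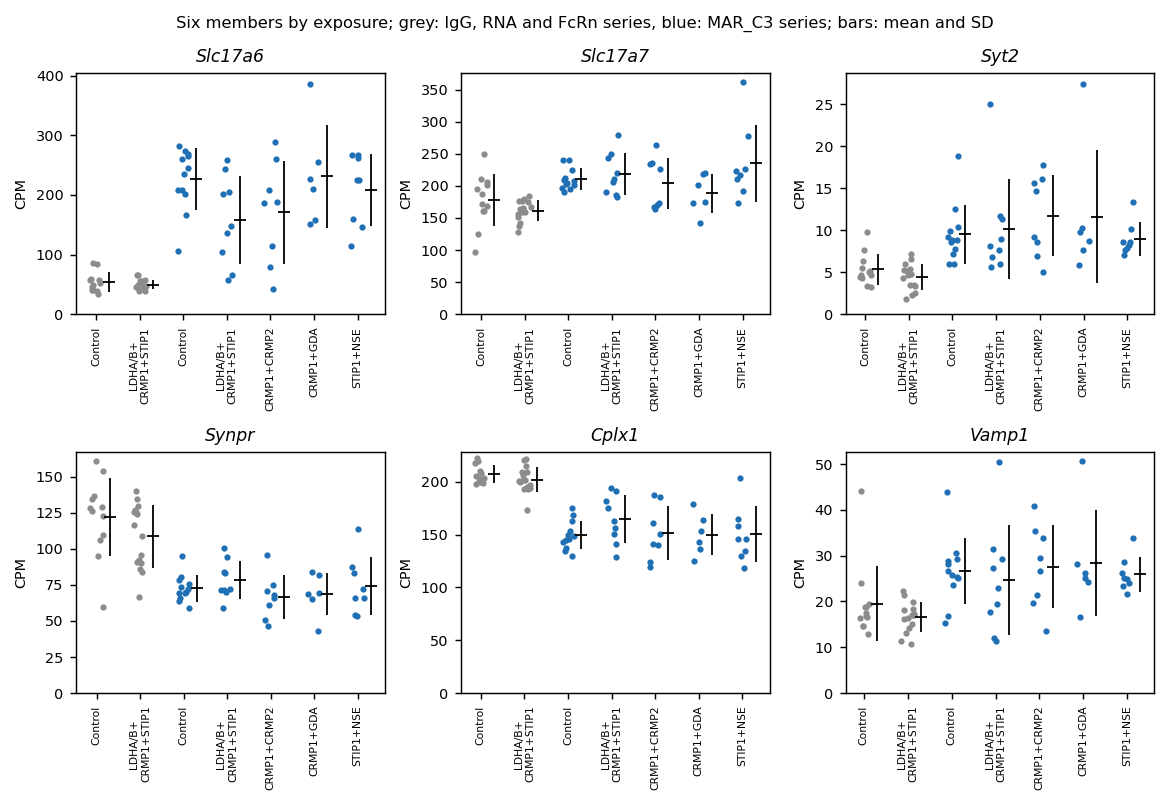
CPM of 6 genes in every pup by antibody pattern, with grey points for the IgG, RNA and FcRn series and blue points for the MAR_C3 series; the bars give the mean and SD of each group, and the vertical axes start at 0. Among controls, Slc17a6 lies between 34.2 and 85.1 CPM in the grey points and between 105 and 282 CPM in the blue points, and Cplx1 between 198 and 223 CPM and between 130 and 175 CPM.

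CRMP1+CRMP2 was the 1 antibody pattern in which any of the 41 genes was called against all controls. Against all 24 controls, with 1 surrogate variable in the model, 12 of the 41 genes differed at an adjusted p under 0.1, when 11.4% of all 12691 genes did. Of these, 11 were lower and 1 higher, when 6.56% of all genes were called lower, and 30 of the 41 had a log2 fold change below 0. The median log2 fold change was -0.10 over the 41 genes and 0.01 over all genes. All 8 CRMP1+CRMP2 pups belong to the MAR_C3 series. Levels are therefore given beside those of the MAR_C3 controls. The fold changes and adjusted p printed with them are those against all 24 controls.

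Among vesicle membrane proteins, Syp (rn7 chrX:14849444-14864553, minus strand) had a lowest, median and highest level of 386, 587 and 651 CPM in the exposed pups, compared with 602, 706 and 753 CPM in the 12 MAR_C3 controls and 398, 543 and 721 CPM in the other 12. All 8 exposed pups lay below the median of the MAR_C3 controls and 4 lay below their range, while 1 lay below the range of all controls. The log2 fold change was -0.29 (SE 0.06, adjusted p = 0.00816). Synaptogyrin 3 (Syngr3), which belongs to the same family of vesicle proteins, ranged over 91.5, 108 and 141 CPM in the exposed pups and 120, 141 and 156 CPM in the MAR_C3 controls, with 5 of 8 pups below the range of the MAR_C3 controls. None lay below the range of all 24 controls, against which the change was -0.24 on the log2 scale (SE 0.06, adjusted p = 0.0181). All 8 genes of this role had log2 fold changes below 0, but the other 6 did not pass; Sv2b stood at -0.05 (SE 0.07) and Synpr at -0.35 (SE 0.16).

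Of the synapsins, which tether vesicles to actin and to each other, Syn2 (rn7 chr4:148186270-148344192, plus strand) was lower, with 48.0, 111 and 125 CPM (lowest, median, highest) in the exposed pups and 87.2, 130 and 159 CPM in the MAR_C3 controls. Its log2 fold change was -0.45 (SE 0.13, adjusted p = 0.0426), compared with -0.06 (SE 0.06) for Syn1 and 0.14 (SE 0.10) for Syn3, neither of which passed. A pair of pups held the low end of Syn2, at 48.0 and 51.3 CPM, and the other 6 lay between 92.7 and 125 CPM.

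The machinery that disassembles SNARE bundles was lower in 2 of its 3 listed genes. The ATPase Nsf ranged over 154, 226 and 257 CPM in exposed pups and 203, 263 and 299.5 CPM in the MAR_C3 controls (log2 fold change -0.26, SE 0.08, adjusted p = 0.0467). Its adaptor Napb, the neuronal beta-SNAP (rn7 chr3:136135969-136179225, minus strand), ranged over 35.6, 57.7 and 69.1 CPM against 56.9, 66.8 and 80.5 CPM (log2 fold change -0.33, SE 0.09, adjusted p = 0.0268). The general adaptor Napa, at -0.06 (SE 0.05), did not pass. Complexin 2 (Cplx2), which binds the assembled SNARE bundle, ranged over 84.0, 92.3 and 114 CPM against 94.1, 102 and 108 CPM (log2 fold change -0.15, SE 0.05, adjusted p = 0.0694), and Cplx1 stood at -0.08 (SE 0.06). The exposed pups overlapped the MAR_C3 controls in each of these genes. For Cplx2, 6 of the 8 lay below the range of all controls and 1 above that of the MAR_C3 controls. Below the range of all controls in Cplx2 were also 5 of 6 CRMP1+GDA, 3 of 8 STIP1+NSE and 2 of 25 LDHA/B+CRMP1+STIP1 pups.

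None of the 4 SNAREs passed: Stx1a stood at -0.15 (SE 0.06), Vamp2 at -0.12 (SE 0.05), Vamp1 at 0.04 (SE 0.16) and Snap25 at 0.00 (SE 0.07) in log2 fold change. Of the calcium sensors, Syt5 passed against all 24 controls (log2 fold change -0.16, SE 0.05, adjusted p = 0.0456). It ranged over 146, 182 and 220.0 CPM in exposed pups and 177, 202 and 217.5 CPM in the MAR_C3 controls. Syt1 also passed against all 24, at -0.18 (SE 0.06, adjusted p = 0.0906). Against the MAR_C3 controls alone neither passed by edgeR, with Syt5 at -0.11 (SE 0.06, adjusted p = 0.296) and Syt1 at -0.11 (SE 0.06, adjusted p = 0.294).

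Rab3a, the GTPase that guides vesicles to the active zone, ranged over 296, 370.5 and 427 CPM in exposed pups and 374.5, 413 and 442.5 CPM in the MAR_C3 controls (log2 fold change -0.20, SE 0.05, adjusted p = 0.0232), with 4 of 8 pups below the range of all controls. Below that range in Rab3a were also 3 of 8 STIP1+NSE, 2 of 6 CRMP1+GDA and 4 of 25 LDHA/B+CRMP1+STIP1 pups. Of the 25, 1 lay above it. Unc13b (Munc13-2, rn7 chr5:57289227-57502926, plus strand), a priming factor, was the 1 member called higher, with 80.7, 98.8 and 135 CPM against 50.8, 83.1 and 119 CPM (log2 fold change 0.42, SE 0.12, adjusted p = 0.036). The scaffolds Bsn (0.14, SE 0.12) and Unc13a (0.07, SE 0.12) did not pass. Of the endocytosis genes, amphiphysin (Amph) ranged over 99.6, 141 and 154 CPM against 124, 163 and 173 CPM (log2 fold change -0.25, SE 0.06, adjusted p = 0.0162) and Snap91 passed at -0.14 (SE 0.05, adjusted p = 0.0816), while Dnm1 stood at -0.16 (SE 0.07). Neither glutamate transporter passed, with Slc17a6 at -0.24 (SE 0.12) and Slc17a7 at 0.02 (SE 0.11).

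**Figure D3:**
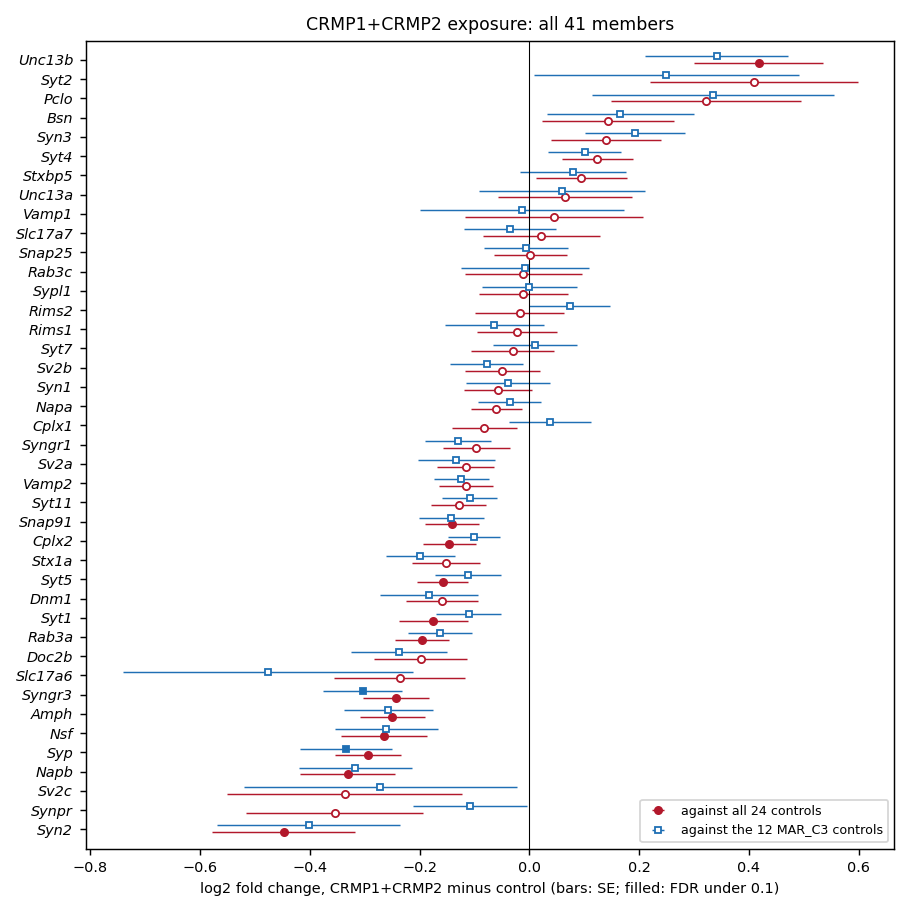
Log2 fold change of all 41 genes after CRMP1+CRMP2 exposure (points, bars SE), against all 24 controls (red circles) and against the 12 MAR_C3 controls (blue squares); filled symbols have an adjusted p under 0.1. Against all controls 12 symbols are filled, and against the MAR_C3 controls only those of Syp and Syngr3.

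The count rested in part on 2 of the 8 pups, a female of litter 9_1 and a male of litter 9_6. Their thalamus and habenula markers summed to 85.0 and 205 CPM, below every MAR_C3 control (331 CPM and above), and their cortical and hippocampal markers summed to 2345 and 2349 CPM, against 883 to 1554 CPM in the other 6. For 6 of the 12 called genes (Syp, Amph, Napb, Nsf, Snap91 and Syn2) these were the 2 lowest of the 8 pups, and for Unc13b the 2 highest. Syp stood at 423 and 386 CPM in the pair and at 544 to 651 CPM in the other 6, and Napb at 35.6 and 37.97 CPM in the pair and at 56.4 to 69.1 CPM in the other 6. With the 2 pups left out, none of the 41 genes passed, and 0.0395% of all genes did (5 genes); 9 of the 41 had an unadjusted p under 0.05, 8 of them lower, when 12.3% of all genes did. Syp then stood at -0.23 (SE 0.06, adjusted p = 0.224) and Syngr3 at -0.24 (SE 0.07, adjusted p = 0.224). All 12 kept their direction.

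**Figure D4:**
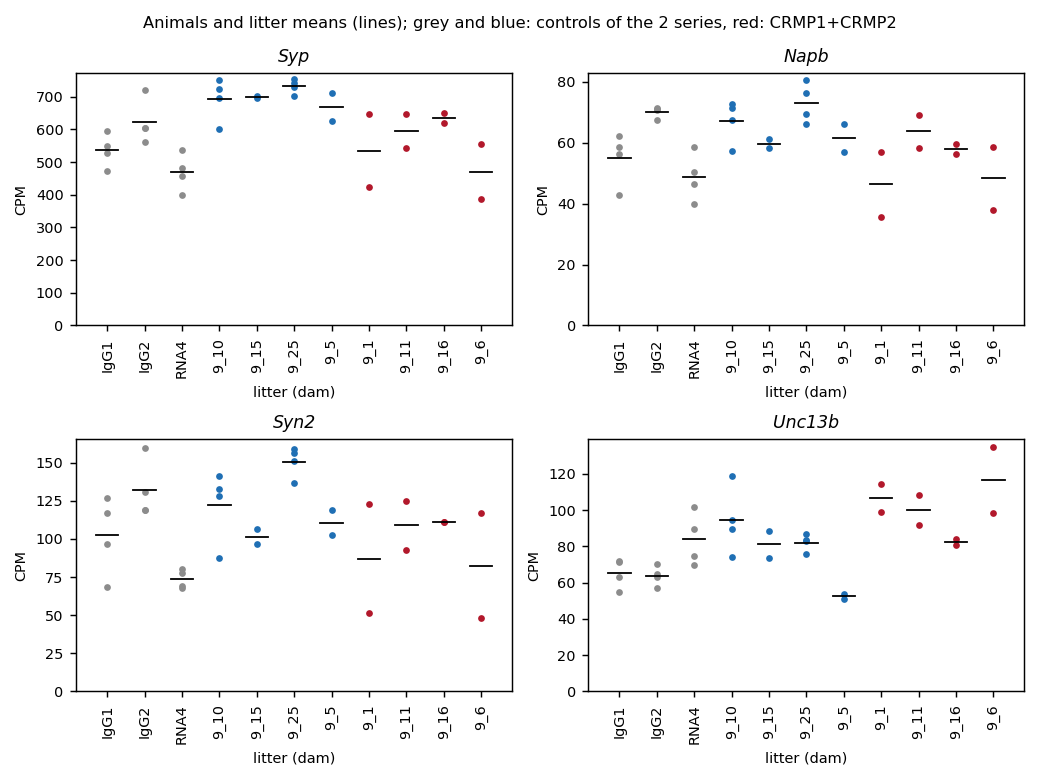
CPM of Syp, Napb, Syn2 and Unc13b in each pup by litter, with lines at the litter means, for the 3 control litters of the IgG, RNA and FcRn series (grey), the 4 of the MAR_C3 series (blue) and the 4 CRMP1+CRMP2 litters (red). In litters 9_1 and 9_6 the 2 littermates lie far apart, with Syp at 423 and 647 CPM and at 386 and 555 CPM.

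The count also depended on the controls and on the litter. Against the 12 MAR_C3 controls alone, with sex as a covariate, 2 of the 41 genes passed (Syngr3 at -0.30, SE 0.07, adjusted p = 0.0818, and Syp at -0.33, SE 0.08, adjusted p = 0.0939), when 1.01% of 12605 genes did. With title series and sex in place of the surrogate variable 5 passed (3.87% of all genes). With litter as a random effect 1 passed (Syp at -0.31, SE 0.07, adjusted p = 0.0918, limma voom), when 0.26% of all genes did, and with counts summed per litter none passed, when 0% of all genes did; 6 of the 41 then had an unadjusted p under 0.05, 2 higher and 4 lower, when 11.3% of all genes did. Without litter 9_6 none passed by edgeR, when 0.324% did. Of the 8 pups, 2 held more than 10 CPM of Hox transcripts, which mark hindbrain and spinal cord, as did 1 of the controls. Without these pups, 11 of the 41 genes passed (10 lower, 1 higher), when 5.48% of all genes did. Of the 12 genes called with all pups, 9 stayed called, and the rest of the 11 were not among those 12. Scaling by library size alone, or by upper quartiles, moved the split of all called genes from 613 higher and 832 lower to 879 and 441, or to 783 and 559; the 41 genes were then 8 lower and 1 higher in both.

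Markers of tissues and cell types also differed in the comparison of CRMP1+CRMP2 with all 24 controls. All 8 choroid plexus markers were called higher. Their summed levels were 234 to 3537 CPM in the exposed pups and 164 to 3001 CPM in the MAR_C3 controls. In the IgG, RNA and FcRn controls they were 24.4 to 133 CPM. Of the pineal markers 6 of 7 tested were called higher (9.33 to 269 CPM against 6.29 to 15.8 CPM summed). The medians of these sums were 11.1 and 9.19 CPM, so most exposed pups lay near the controls. In STIP1+NSE 3 of 7 pineal markers tested were also called higher (6.81 to 99.2 CPM summed, median 10.1 CPM). None was called in LDHA/B+CRMP1+STIP1 or CRMP1+GDA. Of the markers of GABAergic neurons 4 of 8 were called lower (320 to 708 CPM against 527 to 732 CPM in the MAR_C3 and 465 to 1182 CPM in the other controls). Between the control series 4 of these 8 markers were also called lower in MAR_C3. After CRMP1+CRMP2 exposure 1 of 8 general neuronal markers was called lower (8739 to 10657 CPM against 9089 to 10814 CPM in the MAR_C3 controls). Of the oligodendrocyte lineage markers 2 of 8 were called lower (459.8 to 593 CPM against 471 to 611 CPM), and 1 of 8 cortical and hippocampal markers and 1 of 6 erythroid markers were called higher. The part of these tissues and cell types in the changes of the 41 genes was not tested. Of 69 other vesicle cycle genes, 18 were lower and 2 higher with a median of -0.08, led by the vesicle amine transport protein Vat1 (-0.21, SE 0.05, adjusted p = 0.00981), the gamma-SNAP Napg (-0.17, SE 0.04, adjusted p = 0.0138) and Syt3 (-0.24, SE 0.06, adjusted p = 0.0145) in log2 fold change.

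The other patterns gave no call among the 41 genes. LDHA/B+CRMP1+STIP1, with 25 pups the largest group, shared the same 24 controls, and 0.0157% of 12700 genes were called. At an unadjusted p under 0.05, 7 of the 41 were lower and none higher, when 3.22% of all genes were lower. The smallest p-values were those of Sv2a, a vesicle glycoprotein (log2 fold change -0.10, SE 0.04, adjusted p = 0.489), Vamp2 (-0.08, SE 0.03, adjusted p = 0.534) and Snap91 (-0.09, SE 0.04, adjusted p = 0.566). The median over the 41 genes was -0.04, with 31 below 0. Neither is given beside its value over all genes, so neither is read as a result about the 41 genes. At an unadjusted p under 0.05, 5 of the 41 were lower within the MAR_C3 series (2.58% of all genes) and 3 within the other (2.21% of all genes). Choroid plexus markers moved with this exposure, with 7 of 8 higher at an unadjusted p under 0.05, none called and a median log2 fold change of 0.96; they summed to 413 to 2286 CPM against 164 to 3001 CPM in the MAR_C3 controls, and to 22.9 to 609 CPM against 24.4 to 133 CPM in the other series. The part of this tissue in the levels of the 41 genes was not tested. Without the pups over 10 CPM of Hox transcripts, 3 of the 41 were called lower, when 0.719% of all genes were: Sv2a (-0.14, SE 0.04, adjusted p = 0.0694), Vamp2 (-0.11, SE 0.03, adjusted p = 0.0798) and Syp (-0.18, SE 0.05, adjusted p = 0.0847). Of the 9 MAR_C3 pups of this pattern, 3 had thalamus and habenula markers below every MAR_C3 control; without them none was called and 1 was lower at an unadjusted p under 0.05, when 2.03% of all genes were. The leading other vesicle cycle genes were Atp6v0a1 (-0.11, SE 0.04), Syt10 (-0.34, SE 0.13) and Vamp7 (0.11, SE 0.04), with adjusted p of 0.435, 0.51 and 0.534.

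For CRMP1+GDA, no gene of 12641 was called by edgeR (0%), and 6 of the 41 were lower at an unadjusted p under 0.05 (2.03% of all genes) with none higher. The leading genes were Cplx2 (log2 fold change -0.18, SE 0.06), Nsf (-0.25, SE 0.09) and Napb (-0.25, SE 0.10), each with an adjusted p of 0.999. The median over the 41 genes was -0.08, and 28 were below 0, again without the values over all genes. DESeq2 called none and found 6 lower at an unadjusted p under 0.05, when 2.22% of all genes were. Among other vesicle cycle genes Syt17 (-0.38, SE 0.13) and Atp6v1b2 (-0.10, SE 0.04) had the smallest p-values, neither past the threshold.

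For STIP1+NSE, 0.0474% of 12660 genes were called and none of the 41, of which none had an unadjusted p under 0.05 in either direction, when 1.64% of all genes were lower at that level. The smallest p-values were those of Sv2c (log2 fold change -0.28, SE 0.17), Doc2b, a calcium sensor of spontaneous release (-0.14, SE 0.09), and Cplx2 (-0.09, SE 0.06). The median over the 41 genes was -0.02, also without the value over all genes. Complexin 3 (Cplx3), the first of the other vesicle cycle genes, stood at 0.75 (SE 0.18, adjusted p = 0.278), ahead of Syt9 (-0.30, SE 0.15) and Scamp1 (-0.07, SE 0.04).

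**Figure D5:**
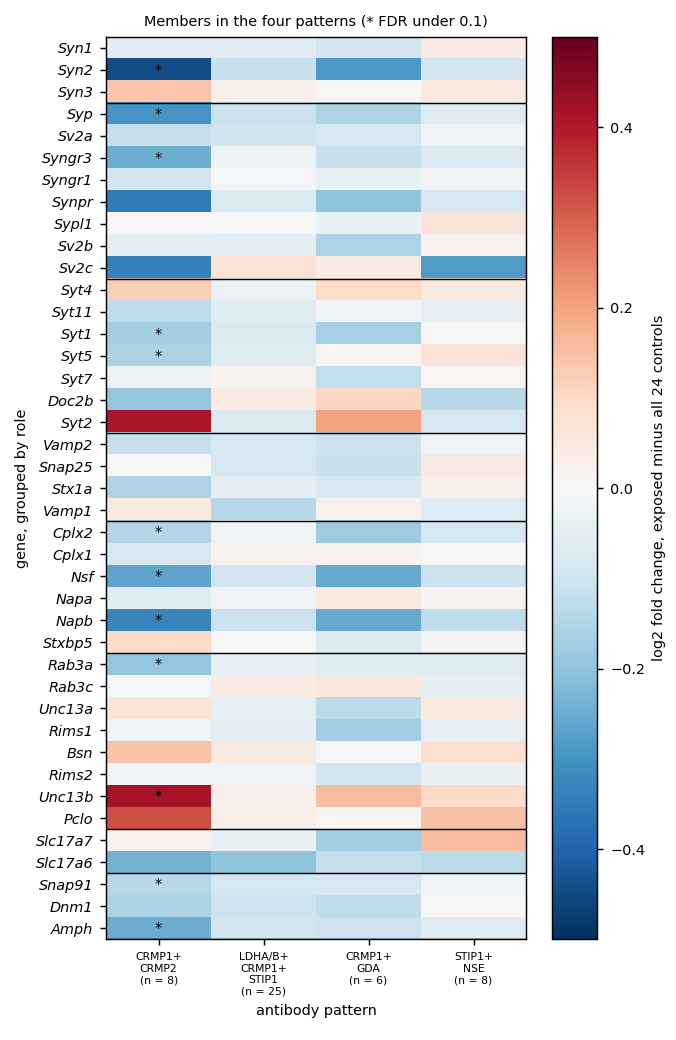
Log2 fold change of each of the 41 genes, grouped by role, in the 4 antibody patterns against the same 24 controls (red higher, blue lower, scale ending at -0.5 and 0.5), with a star where the adjusted p was under 0.1. All 12 stars stand in the CRMP1+CRMP2 column.

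With all 47 exposed pups pooled, 0.0321% of 12477 genes were called and none of the 41. At an unadjusted p under 0.05, 9 were lower and none higher, when 4.19% of all genes were lower. In CRMP1+CRMP2 alone 18 of the 41 were lower at that level, when 13.1% of all genes were. The leading genes of the pooled comparison were Vamp2 (log2 fold change -0.08, SE 0.03), Syp (-0.13, SE 0.05) and Sv2a (-0.09, SE 0.03), with adjusted p of 0.342, 0.342 and 0.369. Summing counts per litter left none of the 41 at an unadjusted p under 0.05, when 2.11% of all genes were. Unc13d (0.36, SE 0.10), Itsn1 (0.14, SE 0.05) and Napg (-0.07, SE 0.03) led the other vesicle cycle genes, with adjusted p from 0.231 to 0.342.

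Whether CRMP1+CRMP2 differed from the other patterns was tested directly within the MAR_C3 series, over 12738 genes and with sex as a covariate. No gene was called in any of the 3 tests by edgeR (0% each), so a call in one pattern and none in another does not show that the patterns differ. Against LDHA/B+CRMP1+STIP1, 3 of the 41 had an unadjusted p under 0.05 (10.7% of all genes): Unc13b (log2 difference 0.32, SE 0.14), Doc2b (-0.21, SE 0.09) and Syngr3 (-0.22, SE 0.10). Against CRMP1+GDA, 2 did (14.7% of all genes), Doc2b (-0.37, SE 0.10, adjusted p = 0.303) and Syngr3 (-0.23, SE 0.11), followed by Syp (-0.23, SE 0.12). Against STIP1+NSE, 7 did (6.53% of all genes), led by Stx1a (-0.21, SE 0.08), Syp (-0.28, SE 0.11) and Syngr3 (-0.25, SE 0.10). DESeq2 called none of the 41 and found 3, 3 and 7 at an unadjusted p under 0.05, when 11.5%, 15.3% and 6.91% of all genes were. Of the other vesicle cycle genes, the clathrin light chain Cltb (-0.21, SE 0.08), Cltc (0.19, SE 0.09) and Stxbp5l (0.35, SE 0.16) led against LDHA/B+CRMP1+STIP1, Rimbp2 (0.38, SE 0.14), Cltb (-0.22, SE 0.09) and Vat1 (-0.31, SE 0.12) against CRMP1+GDA, and Itsn1 (0.26, SE 0.10), Atp6v1b2 (-0.14, SE 0.06) and Rims3 (-0.24, SE 0.11) against STIP1+NSE.

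LDHA/B+CRMP1+STIP1 was the 1 pattern present in both series, which allowed its effect to be compared between them. None of the 41 had an interaction that passed, when 0.11% of 12700 genes did, and 5 had an unadjusted p under 0.05 (3.05% of all genes). The smallest were Cplx1 (log2 difference of the effects, MAR_C3 minus the other series, 0.17, SE 0.07), Snap91 (-0.15, SE 0.07) and Syt5 (0.13, SE 0.06), each with an adjusted p of 1.00. With litter as a random effect none of the 41 reached an unadjusted p under 0.05, when 0.575% of all genes did. Cadps (-0.19, SE 0.07), Syt6 (0.26, SE 0.12) and Cplx3 (0.46, SE 0.23) led the other vesicle cycle genes.

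Females and males did not differ in any of the 41 genes by the same test, when 0.0641% of 12477 genes were called. Cplx1 alone had an unadjusted p under 0.05 (4.66% of all genes), at 0.08 (SE 0.04) higher in females, and Cplx2 (0.05, SE 0.03) and Sv2b (-0.07, SE 0.04) followed. DESeq2 called none of the 41, with 1 at an unadjusted p under 0.05 (5.17% of all genes). With females and males compared within litters, by litter as a fixed block, none was called and 2 reached that level (8.05% of all genes). In the IgG, RNA and FcRn series alone 6 of the 41 were lower in females at that level (3.82% of all genes) and none higher, and in the MAR_C3 series 1 was higher (1.15% of all genes). Of the other vesicle cycle genes, Doc2a (0.10, SE 0.04), Ppfia2 (0.06, SE 0.03) and Rimbp2 (0.10, SE 0.06) had the smallest p-values.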

How the data were processed

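The authors extracted RNA from coronal slices of postnatal day 2 rat brain, prepared poly-A selected libraries, aligned reads to rn7 with STAR 2.5.4b and counted them per gene with featureCounts, and the deposited table holds these raw counts for 17494 genes in 71 pups. Of the counts from 1 to 9, 74.5% were even, so that a count may stand for a read end rather than a fragment, and halved counts were tried.

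All 41 genes, the marker lists and the other vesicle cycle list were chosen with earlier results of these data known. Counts were tested with edgeR 4.0.16 (R 4.3.3; TMM factors, robust quasi-likelihood test, two-sided) with 1 surrogate variable from sva 3.50.0, on genes over 1 CPM in at least 2 pups of the fit (at least 8 for the pooled and sex comparisons). Benjamini-Hochberg adjusted p under 0.1 over all genes tested was called. The comparison of control series and those within MAR_C3 had sex as a covariate instead, and sex was tested with each group and series as a level. Genes were named by smallest p, up to 10 called genes or otherwise the first 3, with further members given to account for their role. Of the other vesicle cycle genes the first 3 by p were named, except for 1 gene in 1 comparison, which is not reported here. RPKM used TMM-scaled counts and exon lengths of the table, and CPM are TMM-scaled.

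Alternatives were DESeq2 1.42.0, other scaling factors, no filter on low counts, other covariates, one series alone, litter as a random effect (limma 3.58.1, voom), counts summed per litter, each litter left out, and 2 that were chosen after seeing the data, which left out the pups standing apart on Hox or thalamus markers. On simulated counts for CRMP1+CRMP2 against controls (12691 genes), 100 of 100 genes changed by 1 on the log2 scale and 89 of 100 changed by 0.5 were recovered, with 22 false calls. The simulated pups were independent, with no litter effect. These rates therefore do not carry over to the measured pups, which share litters. Correlations used litter means.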

Additional observations from a re-analysis of the deposited data

Results flagged for a closer look

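In 4 groups of 6 to 9 pups, 164 combinations of gene and group were examined for a pup far from the rest (Dixon's criterion, which chance alone meets in about 5% of groups), and 12 were found, in 10 genes and 5 pups. In CRMP1+GDA, 1 pup of litter 9_8, which also held the highest Hox sum of the study (186 CPM), had the highest level of 6 genes. Its Sv2a was 521 CPM (next pup 376 CPM), Sv2c 58.3 CPM (19.2 CPM), Syt2 27.4 CPM (10.3 CPM), Vamp1 50.6 CPM (28.3 CPM), Rab3c 66.3 CPM (47.6 CPM) and Rims1 171 CPM (131 CPM). A littermate had the highest Unc13b, at 131 CPM (85.1 CPM).

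In LDHA/B+CRMP1+STIP1 of the MAR_C3 series, 1 pup of litter 9_14, with 140 CPM of Hox transcripts, had Syt2 at 25.0 CPM, when the next pup had 11.7 CPM. In STIP1+NSE, 1 pup of litter 9_7 had the lowest Napb, at 44.4 CPM (next 62.0 CPM), and the lowest Snap91, at 462 CPM (547 CPM). Its littermate had the highest Rab3c, at 62.0 CPM (45.4 CPM), and the highest Pclo, at 290.3 CPM (186 CPM). The part of hindbrain tissue in these levels was not tested.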

How the results depend on the processing

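For CRMP1+CRMP2, the 12 called genes kept their direction in 276 of 276 values over 23 alternatives and stayed called in 184. The number of the 41 genes called fell to 5 with title series and sex as covariates, 2 within MAR_C3, 1 with litter as a random effect, 0 with counts summed per litter and 0 without the pups low in thalamus markers (an alternative with 2 fewer pups), and ranged from 0 (without litter 9_6) to 16 when single litters were left out; beyond fewer samples, the cause was not tested. Between control series it fell to 12 with litter as a random effect and 9 with litter sums. Syt1 lost its call with litter sums (adjusted p = 0.115 by edgeR). The number called between control series ranged from 15 (without Control litter 9_10 or 9_25) to 26 when single litters were left out. Of the single-litter fits, only that without litter 9_6 is given with its share of all genes (0.324%). The other single-litter counts are given without that share and are not read as results about the 41 genes. For LDHA/B+CRMP1+STIP1 the number called rose to 3 without the pups over 10 CPM of Hox transcripts. The remaining comparisons called none of the 41 genes under any alternative run. No gene named by the rule on smallest p changed sign in the comparison it was named for; genes named only to fill a role were not followed here, and for CRMP1+CRMP2 some near 0 did change sign (Cplx1 stood at 0.04 within MAR_C3, Napa at 0.01 without litter 9_6). No paired analysis was possible because replicate numbers follow accession order and pair no pups across exposure groups; for sex, which varies within litters, litter as a fixed block called none of the 41 genes.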
